A study of Mus musculus with 15 samples.

Results

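The mitosis genes examined here are 40 genes that dividing cells use to enter, order and finish mitosis: kinases and cyclins of the transition from G2 to M phase, proteins of the centromere and kinetochore, kinesins of the spindle, and factors of cytokinesis. They were chosen by name, with no measured value in the rule but with earlier results of these data known. All 40 have a row among the 48709 genes of the deposited count table. All 40 also passed the filter on low counts, which kept 16554 genes for testing, and the lowest age mean of any member was 0.383 CPM, in Cdkn3 at 8 weeks. RNA was sequenced from pancreatic islets of NOD (NOD/ShiLtJ) females, an inbred mouse strain in which immune cells invade the islets before diabetes develops. The groups are 3 mice at each of 5 ages, 4, 6, 8, 10 and 12 weeks, and every group carries the same genotype, so age is the only label that separates them. Islets were freed with collagenase and picked by hand, so each sample holds endocrine cells along with any leukocytes, vessels or exocrine tissue that came with them. Polyadenylated RNA was read, and all values below derive from the deposited counts of reads per gene.

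Mitosis begins when the kinase Cdk1, bound to a B-type cyclin, becomes active. The kinases Plk1, Aurka and Aurkb then build the spindle, kinetochores attach the chromosomes to it, and the spindle checkpoint holds back the anaphase-promoting complex until every chromosome is attached. Most of these transcripts are made late in the cell cycle, under the DREAM complex, B-Myb and Foxm1, and are hardly made by resting cells, so in a tissue their level follows how many cells are in cycle. In young mice beta cells still divide, and they do so less with age, while lymphocytes that meet antigen divide rapidly.

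Depth was 25407492 to 41616275 counts per mouse, and 3 counts, taken as the floor, corresponded to 0.0721 to 0.118 CPM of a library before TMM scaling. The members had between 6 and 2586 counts in a mouse. Values are given in CPM, counts over the library size after TMM scaling, as the mean ± SD of n = 3 mice or mouse by mouse in the order of the replicate numbers in the labels. Fold changes are log2 values from an edgeR quasi-likelihood fit of all 15 mice with 1 mean per age, with their standard error (SE), and a value above 0 stands for a higher level at the older age. A gene was called at the study's threshold, which asks for a change of 1.5-fold or more and an unadjusted p under 0.05, and separately at a Benjamini-Hochberg adjusted p under 0.05 over all genes tested. Endocrine genes were high in every mouse, 11241 to 23706 CPM summed over 12 genes, as the tissue label states. Leukocyte markers (22 genes) rose from a sum of 49.8 to 242 CPM at 4 weeks to 2049 to 2434 at 12 weeks. Genes of the intestinal lining stood out in 1 mouse at 6 weeks (158 CPM summed) and 1 at 12 weeks (472). Counts of called members and slopes were also made without each mouse of the ages concerned in turn. Counts of mice without overlap and counts of other gene lists were not. In bulk samples, fewer cycling cells and less RNA per cycling cell cannot be told apart.

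Summed over the 40 genes, the mitosis transcripts stood at 500.4, 543 and 570.0 CPM in the mice of 4 weeks and at 176, 171 and 239 CPM in those of 6 weeks. At 8 weeks the sums were 107, 250.2 and 285 CPM, at 10 weeks 559.8, 501 and 269 CPM and at 12 weeks 468, 336 and 483 CPM. The 6-week mice thus all lay below the 4-week mice, the 8-week mice spanned a wide range, and the mice of 10 and 12 weeks reached toward the 4-week level. Taken gene by gene, the median member stood at 35.6% of its 4-week mean at 6 weeks (range 24.6% to 61.3%), at 39.4% at 8 weeks (14.2% to 78.8%), at 81.5% at 10 weeks (22.5% to 205%) and at 79.1% at 12 weeks (18.0% to 162%). At 6 weeks 0 members were above their 4-week mean, at 10 weeks 13 and at 12 weeks 11. The highest age mean fell at 4 weeks for 26 members, at 10 weeks for 9 and at 12 weeks for 5, and the lowest at 6 weeks for 22 and at 8 weeks for 18.

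**Figure D1:**
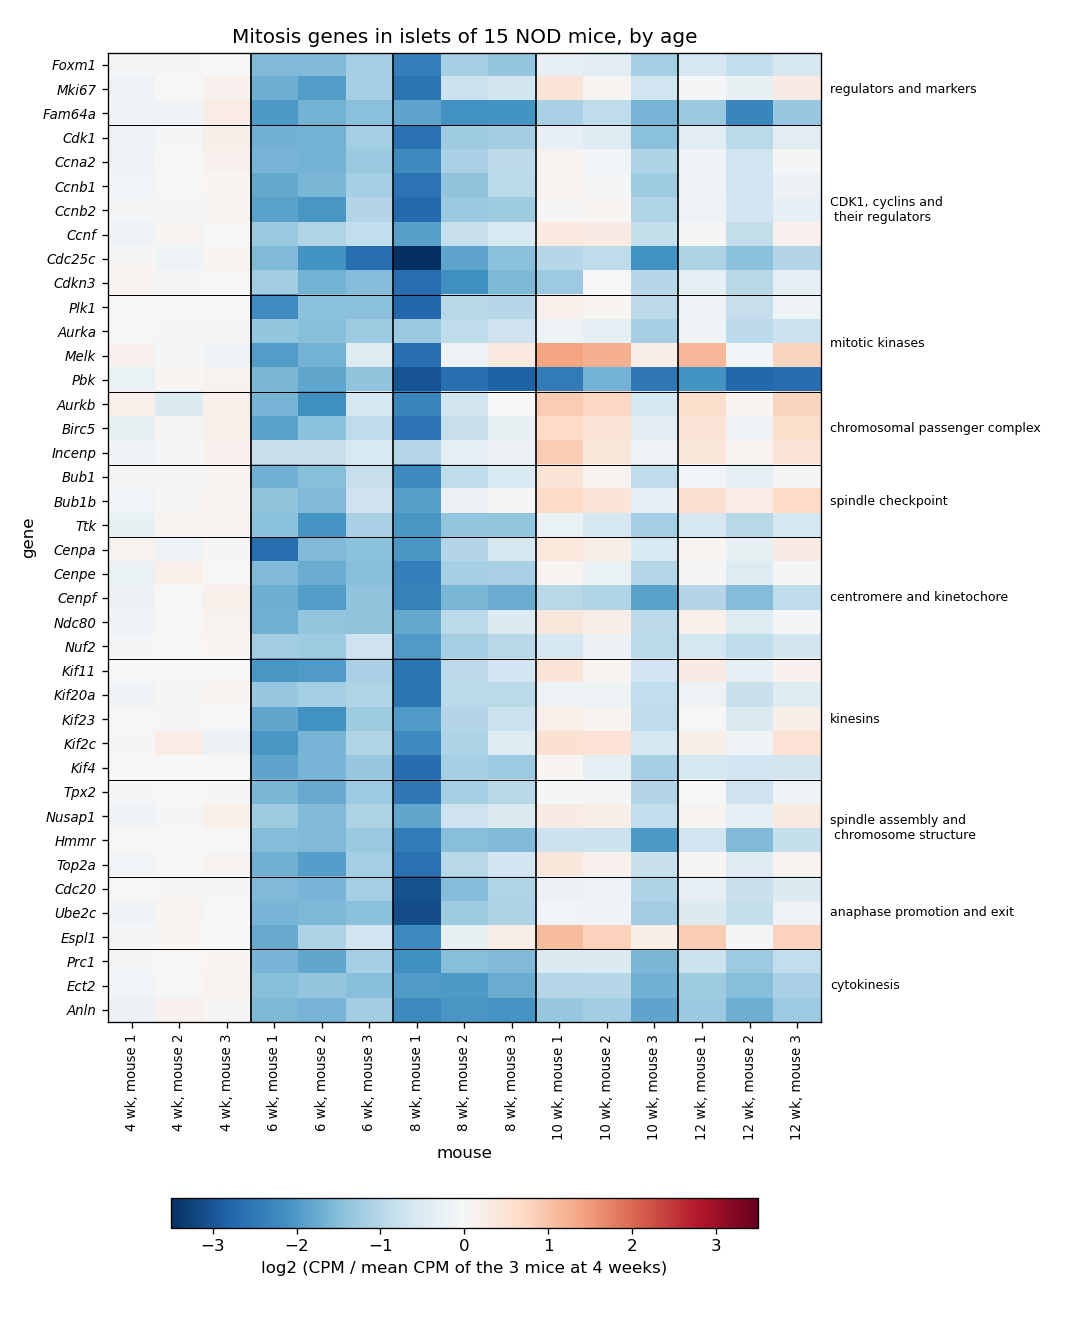
Each row is 1 of the 40 mitosis genes, grouped by role, and each column 1 of the 15 mice, ordered by age. Colour gives log2 of the CPM over the mean CPM of the 3 mice at 4 weeks. Blue fills the 6-week and 8-week columns, deepest in mouse 1 at 8 weeks, and fades at 10 and 12 weeks in most rows, while Pbk, Anln, Ect2 and Fam64a stay blue.

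Single mice stood apart at 8, 10 and 12 weeks. Mouse 1 of the 8-week group was the lowest of all 15 mice in 34 of the 40 members, and mouse 3 of the 10-week group, at 269 CPM, was far below the other two of its age. Both were also the mice with the least leukocyte RNA at their age: the mean log2 CPM of the leukocyte markers was 1.94 in mouse 1 at 8 weeks against 4.03 and 4.63 in the other two, and 4.84 in mouse 3 at 10 weeks against 6.05 and 5.67. At 12 weeks mouse 2 was the lowest of its age in 40 of 40 members, at 336 CPM against 468 and 483 CPM. Its leukocyte mean was 5.68, against 5.68 and 6.03 in mice 1 and 3 of that age. The part of leukocytes in the low values of these mice was not tested.

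Genes of this program are known for short promoter elements, the cell cycle genes homology region (CHR) that DREAM and B-Myb bind and the CCAAT box bound by NF-Y. Since the members moved together, the promoters were searched for CHR (TTTGAA or TTTAAA on either strand) and CCAAT (either strand), in the 250 bases before and 50 after the start given by RefSeq (GRCm38.p6). A promoter was matched by symbol for 31 of the 40 members. A CHR was found in 27 of these 31 (87.1%), against 27.6% of all 32851 promoters in the table. CCAAT was found in 24 of 31 (77.4%) against 37.4%, and 2 or more CCAAT boxes in 17 of 31 (54.8%) against 11.7%. The E2F site (TTTGGCGC, TTTCCCGC, TTTGCCGC or TTTCGCGC, either strand) was found in 1 of 31 (3.23%) against 2.26% of all promoters. In the 100 bases before the start alone, a CHR was found in 12 of 31 (38.7%) against 9.71% of all promoters. CCAAT was found there in 21 of 31 (67.7%) against 18.9%, and the E2F site in 0 of 31 against 0.846%. CHR and CCAAT hits shared at most 1 base. Stretches upstream of 6 members are shown, chosen after the hits were seen because they cover different roles and hold 1 or both elements close to the start. Capitals mark each CHR and CCAAT, written on the strand of the gene, so that TTCAAA and ATTGG are these elements on the other strand, and each stretch ends before the transcribed region of the gene as deposited and in RefSeq.
Mki67, chr7:135716451-135716499, minus strand: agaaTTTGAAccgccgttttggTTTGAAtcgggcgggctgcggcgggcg
Cdk1, chr10:69352939-69353032, minus strand: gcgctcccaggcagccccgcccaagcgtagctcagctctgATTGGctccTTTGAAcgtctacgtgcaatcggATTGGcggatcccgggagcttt
Plk1, chr7:122159315-122159434, plus strand: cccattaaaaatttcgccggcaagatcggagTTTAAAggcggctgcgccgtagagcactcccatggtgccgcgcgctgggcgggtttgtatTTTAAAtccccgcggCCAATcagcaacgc
Kif11, chr19:37376262-37376381, plus strand: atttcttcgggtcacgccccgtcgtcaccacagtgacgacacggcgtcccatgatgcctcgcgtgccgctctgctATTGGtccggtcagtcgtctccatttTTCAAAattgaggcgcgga
Top2a, chr11:99024200-99024309, minus strand: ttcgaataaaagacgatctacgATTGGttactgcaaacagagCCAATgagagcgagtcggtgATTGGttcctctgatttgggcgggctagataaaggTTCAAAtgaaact
Cdc20, chr4:118437353-118437463, minus strand: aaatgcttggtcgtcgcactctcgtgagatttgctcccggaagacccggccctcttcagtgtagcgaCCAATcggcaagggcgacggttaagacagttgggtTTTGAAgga
All 6 stretches hold a CHR, and 5 of them, all but that of Mki67, also hold a CCAAT in the bases shown. In Top2a 3 CCAAT boxes precede the CHR, and in Kif11 and Cdc20 a CCAAT lies upstream of a CHR near the start. A match of letters is a description and not a bound site.

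Between 4 and 6 weeks the mitosis genes fell together. In the 6-week mice 39 of the 40 members were lower at the study's threshold, against 1.75% of all genes tested, and 0 were higher. All 3 mice of 6 weeks lay below all 3 of 4 weeks in 40 of 40 members, against 9.28% of all genes. The median log2 fold change was -1.49, against 0.01 over all genes. Melk (chromosome 4, 44300876 to 44364675, mm10), a kinase of dividing progenitor cells, was the member that missed the threshold, with 4.75, 4.15 and 3.94 CPM at 4 weeks and 1.11, 1.37 and 3.15 CPM at 6 weeks (log2 fold change -1.20 ± 0.61 SE) and an unadjusted p of 0.0703. After adjustment over all genes 5 members were lower (Anln, Ect2, Pbk, Cenpf and Fam64a), against 0.0846% of all genes (14 genes in all), with adjusted p from 0.0105 to 0.0466. That adjusted count varied between fits: it was 31 where the 4-week and 6-week mice were fitted alone and 32 in DESeq2, and 0 to 2 when 1 mouse was left out, while the count at the study's threshold stayed between 36 and 40.

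Foxm1 (chromosome 6, 128362967 to 128376146, mm10), a transcription factor that drives genes of G2 and M phase, had 14.9, 16.4 and 16.0 CPM in the mice of 4 weeks and 5.43, 5.45 and 6.90 CPM in those of 6 weeks. The groups did not overlap, and the log2 fold change was -1.41 ± 0.28 SE (adjusted p 0.0804). Mki67, which codes for the Ki-67 antigen of cycling cells, had 48.4, 55.4 and 61.1 CPM at 4 weeks against 16.8, 14.1 and 24.5 CPM at 6 weeks, also without overlap (log2 fold change -1.58 ± 0.41 SE). Fam64a, a protein degraded as mitosis ends, went from 6.07 ± 1.01 to 1.88 ± 0.353 CPM and was lower after adjustment (adjusted p 0.0466).

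Among Cdk1, its cyclins and their regulators, 7 of 7 members were lower at 6 weeks. Cdk1 itself had 12.6, 13.9 and 16.3 CPM at 4 weeks and 4.48, 4.52 and 6.19 CPM at 6 weeks, with log2 fold change -1.49 ± 0.35 SE. Ccnb1, the cyclin that activates it at the entry to mitosis, had 12.2, 13.3 and 13.8 CPM and then 3.80, 4.34 and 5.91 CPM (-1.48 ± 0.38 SE). In neither gene did the groups overlap. Cdc25c, a phosphatase that activates Cdk1, showed the greatest fall of all members, from 2.51, 2.22 and 2.61 to 0.832, 0.579 and 0.394 CPM (-2.02 ± 0.44 SE), at counts of 21, 22 and 10 in the 6-week mice. Ccnf, a cyclin-like subunit of a ubiquitin ligase, showed the least in this group, at -1.06 ± 0.37 SE.

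Of the 4 mitotic kinases 3 were lower. Plk1, the polo-like kinase of spindle assembly and mitotic exit, stood at 8.65, 8.38 and 8.58 CPM at 4 weeks, nearly the same in the 3 mice, and at 1.90, 3.16 and 3.07 CPM at 6 weeks (-1.65 ± 0.41 SE). Pbk (chromosome 14, 65805837 to 65817822, mm10), a kinase expressed in mitotic cells, went from 21.0, 26.2 and 27.3 to 8.24, 7.08 and 9.34 CPM (-1.60 ± 0.24 SE, adjusted p 0.0343). The 3 members of the chromosomal passenger complex, which corrects faulty attachments of chromosomes, were all lower. Its kinase Aurkb had 5.54, 3.51 and 5.54 CPM and then 1.58, 1.10 and 3.23 CPM (-1.31 ± 0.55 SE), with mouse 3 of 6 weeks just below the lowest of 4 weeks. Its scaffold Incenp, which had the least fall of all 40 members, went from 13.7, 14.6 and 16.4 to 8.48, 8.58 and 10.4 CPM (-0.71 ± 0.25 SE).

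The 3 spindle checkpoint genes and the 5 genes of centromere and kinetochore were lower without exception. The checkpoint kinase Bub1b had 7.04, 7.65 and 7.78 CPM at 4 weeks and 2.81, 2.55 and 4.53 CPM at 6 weeks (-1.19 ± 0.39 SE). Cenpf, a large protein of the outer kinetochore, went from 17.2, 20.0 and 22.4 to 6.10, 5.08 and 7.49 CPM and passed the adjusted test (-1.68 ± 0.26 SE, adjusted p 0.0423). Ndc80, which binds the ends of microtubules, had 4.34, 4.83 and 5.28 CPM and then 1.51, 1.84 and 1.81 CPM (-1.48 ± 0.35 SE). Cenpa, the histone variant of centromeres, showed the greatest fall of this group, at -1.78 ± 0.37 SE.

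All 5 kinesins and all 4 genes of spindle assembly and chromosome structure were lower at 6 weeks. Kif11, the motor that pushes the spindle poles apart, read 14.4, 14.2 and 14.1 CPM at 4 weeks and 3.45, 3.58 and 6.42 CPM at 6 weeks (-1.67 ± 0.42 SE). Top2a, the topoisomerase that untangles sister chromatids, had 54.3, 58.6 and 62.1 CPM and then 18.1, 15.3 and 25.3 CPM (-1.58 ± 0.41 SE). The 3 genes of anaphase and exit were lower too, among them Cdc20, the activator of the anaphase-promoting complex, with 16.3, 16.6 and 15.7 CPM against 5.55, 5.24 and 7.09 CPM (-1.44 ± 0.37 SE). In none of these genes did the 6-week mice reach the 4-week range.

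Of the 3 cytokinesis genes, 2 passed the adjusted test. Prc1, which bundles the microtubules of the central spindle, had 21.7, 22.6 and 23.9 CPM at 4 weeks and 7.33, 6.42 and 10.0 CPM at 6 weeks (-1.52 ± 0.28 SE, adjusted p 0.0733). Ect2 (chromosome 3, 27097222 to 27153878, mm10), the exchange factor that activates RhoA for the contractile ring, went from 16.2, 17.0 and 18.2 to 6.10, 6.52 and 6.07 CPM (-1.46 ± 0.17 SE, adjusted p 0.0105). Anln (chromosome 9, 22331214 to 22389206, mm10), a scaffold of that ring, went from 12.6, 16.3 and 14.9 to 4.95, 4.74 and 6.31 CPM (-1.45 ± 0.19 SE, adjusted p 0.0150). Their falls were of ordinary size, and the standard errors of Ect2 and Anln were the smallest of the 40 members.

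Of the 22 leukocyte markers 0 were called between 4 and 6 weeks in edgeR, at the study's threshold or after adjustment, and 0 had an unadjusted p under 0.05. Their median log2 fold change was 0.38, in the opposite direction to that of the members. Erythroid genes did move with it: 4 of the 6 tested were lower at 6 weeks, and the list summed to 234 to 276 CPM at 4 weeks against 82.8 to 107 CPM at 6 weeks, almost all of it globin (Hbb-bs at 85.6, 99.8 and 94.0 CPM against 31.3, 33.7 and 38.8). Outside the globins, Alas2 fell as well, from 2.47, 2.61 and 2.03 CPM at 4 weeks to 0.555, 1.03 and 1.10 CPM at 6 weeks, without overlap. Klf1, the erythroid transcription factor, was at 0.524, 0.727 and 0.362 CPM at 4 weeks and at 0.515, 0.316 and 0.749 CPM at 6 weeks, so the groups overlapped. Epor overlapped too, with 0.299, 0.385 and 0.289 CPM against 0.198, 0.210 and 0.512 CPM. The part of erythroid cells in the result was not tested. Of the 12 endocrine genes 0 were called in edgeR, and 0 had an unadjusted p under 0.05.

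**Figure D2:**
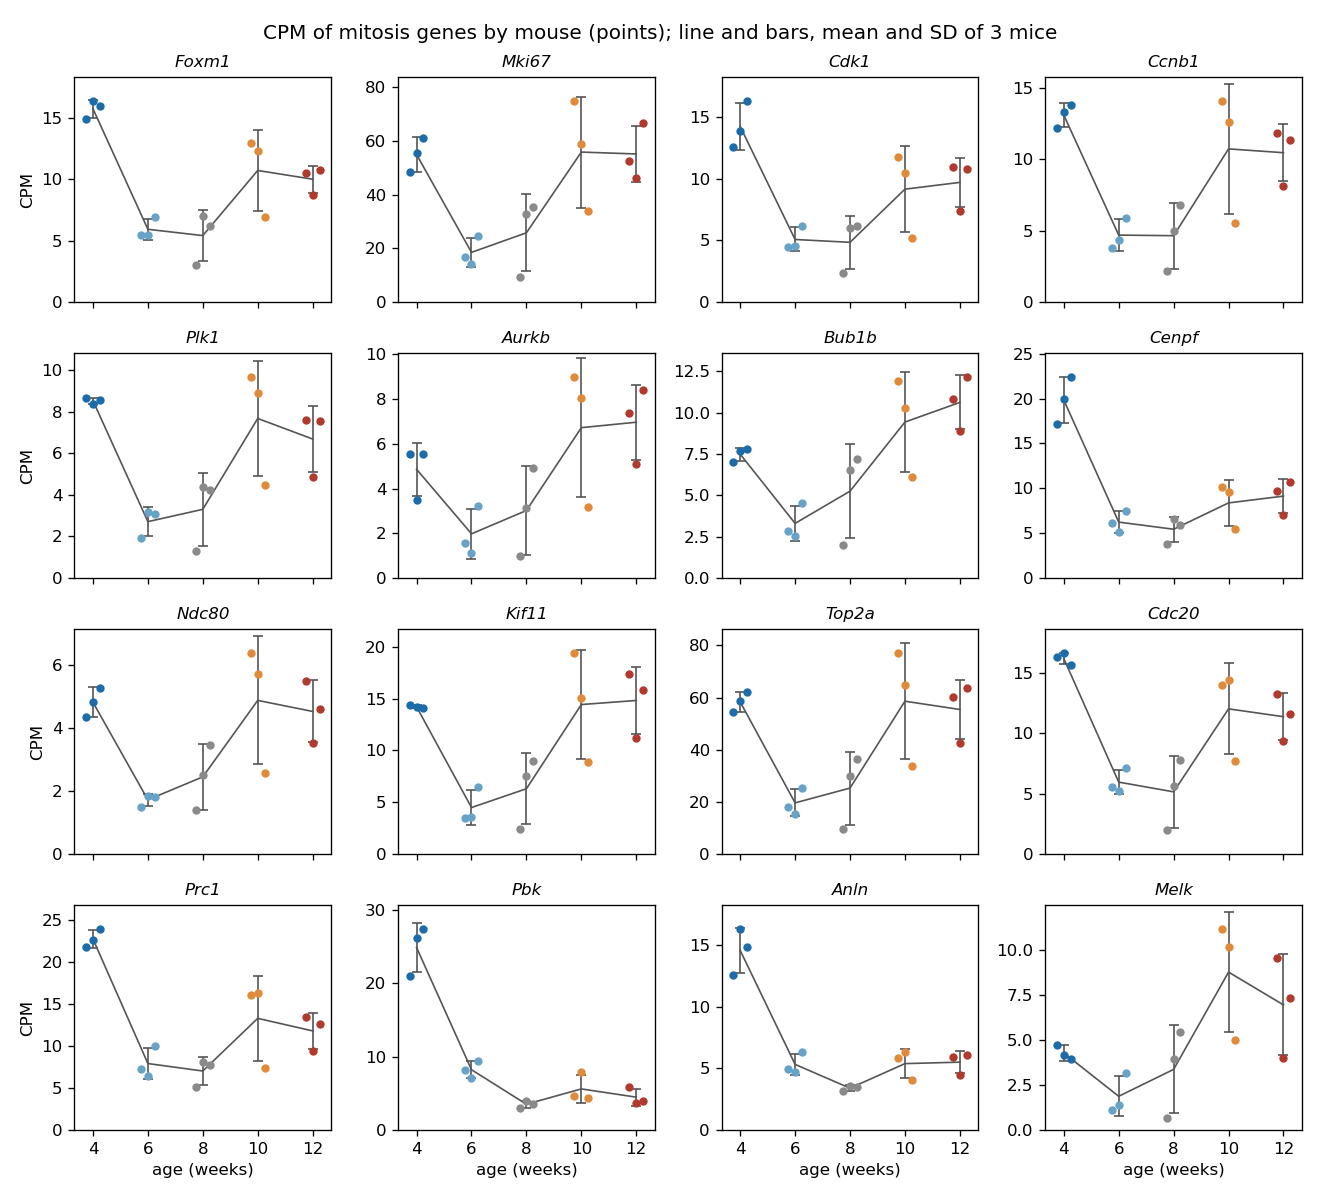
CPM of 16 mitosis genes against age in weeks, with 1 point per mouse and the mean and SD of the 3 mice at each age as line and bars. All panels start high at 4 weeks and are low at 6 weeks. Thereafter Mki67, Top2a, Kif11, Bub1b, Aurkb and Melk climb to near or past the 4-week level, whereas Cenpf, Prc1, Anln and Pbk do not.

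From 6 to 8 weeks few members were called. At 8 weeks 2 members were lower (Pbk and Anln), against 1.42% of all genes, and 0 were higher, against 8.4% of all genes. None passed the adjusted test in edgeR (0% of all genes in either direction), where 3 members had an unadjusted p under 0.05, and DESeq2 and the edgeR exact test each gave 1 adjusted call. The median log2 fold change was 0.11. Pbk had 3.06, 3.99 and 3.50 CPM in the 8-week mice, all below the 6-week range (-1.22 ± 0.24 SE, adjusted p 0.122), and Anln had 3.14, 3.57 and 3.50 CPM (-0.65 ± 0.19 SE). At the other end Melk, with 1.11, 1.37 and 3.15 CPM at 6 weeks and 0.693, 3.96 and 5.46 CPM at 8 weeks, had the greatest positive value (0.85 ± 0.61 SE, p 0.183), but the mice overlapped. Mouse 1 of 8 weeks widened the spread: Mki67 had 9.27, 32.7 and 35.4 CPM, Top2a 9.56, 29.9 and 36.4 CPM and Kif11 2.41, 7.56 and 8.93 CPM, and that mouse was the lowest of all 15 in each. Without it 13 members were called, 11 higher and 2 lower, and the median log2 fold change was 0.42. The share of all genes was not counted in that fit. Leukocyte markers, by comparison, were higher in 19 of 22 genes at the study's threshold between these ages, and in 0 after adjustment. In 6 of the 22 all 8-week mice lay above all 6-week mice.

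Between 8 and 10 weeks most mitosis genes rose. In the 10-week mice 36 of 40 members were higher, against 11.1% of all genes, and 17 after adjustment, against 8.4%. The median log2 fold change was 1.04, and all 40 values were above 0. The 10-week mice lay entirely above the 8-week mice in 13 members, against 17.2% of all genes, and mouse 3 of 10 weeks often fell among the 8-week values. Foxm1 had 3.03, 6.99 and 6.21 CPM at 8 weeks and 13.0, 12.3 and 6.91 CPM at 10 weeks (0.99 ± 0.28 SE, adjusted p 0.0361). Ccnb1 had 2.19, 4.96 and 6.79 CPM and then 14.1, 12.6 and 5.52 CPM (1.21 ± 0.38 SE, adjusted p 0.0480). Both show the low value of mouse 3 at 10 weeks.

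Cdkn3, a phosphatase that acts on Cdk1 and Cdk2, had the greatest rise from 8 to 10 weeks, from 0.255, 0.357 and 0.536 to 0.651, 1.56 and 0.798 CPM (1.39 ± 0.37 SE), though at few counts (7, 10 and 15 in the 8-week mice). Aurka, the kinase of the spindle poles, had the least, from 3.65, 4.92 and 5.46 to 7.92, 7.31 and 4.02 CPM (0.46 ± 0.25 SE), and was not called. Plk1 read 1.28, 4.39 and 4.25 CPM and then 9.66, 8.89 and 4.49 CPM (1.22 ± 0.40 SE), and Cdc20 1.97, 5.67 and 7.82 CPM and then 14.0, 14.4 and 7.68 CPM (1.22 ± 0.37 SE, adjusted p 0.0437). The 3 cytokinesis genes were called after adjustment, with Ect2 at the smallest adjusted p of the comparison (0.71 ± 0.17 SE, adjusted p 0.0273). The adjusted calls rested on single mice: the count was 0 without mouse 1 or mouse 2 of 8 weeks or without mouse 1 or mouse 2 of 10 weeks, 26 without mouse 3 of 8 weeks and 36 without mouse 3 of 10 weeks, and at the study's threshold it was 24 to 40. It was also 0 in a fit of the 8-week and 10-week mice alone, where 16 members passed the study's threshold. The share of all genes was not counted in these other fits. Between 8 and 10 weeks 11 of 22 leukocyte markers were also higher (7 after adjustment), among them 6 of 6 B cell markers, as were 4 of 7 duct markers, while 7 of 12 endocrine genes were lower after adjustment. Their part in the members' rise was not tested.

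Between 10 and 12 weeks no member was called. The share of all genes called was 1.61% higher and 0.562% lower, and 0% either way after adjustment. In edgeR 0 members had an unadjusted p under 0.05, and DESeq2 and the exact test gave 0 as well. Log2 fold changes ran from -0.38 ± 0.27 SE for Fam64a to 0.17 ± 0.38 SE for Bub1b, with a median of -0.07. Top2a had 76.9, 65.0 and 33.9 CPM at 10 weeks and 60.0, 42.5 and 63.7 CPM at 12 weeks, and Kif11 19.4, 15.1 and 8.84 CPM and then 17.4, 11.2 and 15.8 CPM, so the mice of both ages overlapped.

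Set against the low values of 6 weeks, most members were higher in the mice of 12 weeks. Higher values were called for 31 of 40, against 21.3% of all genes, and for 29 after adjustment, against 27%. In 32 members all 3 mice of 12 weeks lay above all 3 of 6 weeks, against 30.1% of all genes. The median log2 fold change was 1.11, against -0.04 over all genes. This comparison shares its 6-week mice with that of 6 against 4 weeks, so the values of each are given on their own. Without mouse 1 or mouse 2 of 6 weeks, or without mouse 1 or mouse 3 of 12 weeks, the adjusted count was 16 to 19.

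Melk showed the greatest rise, from 1.11, 1.37 and 3.15 CPM at 6 weeks to 9.56, 3.98 and 7.32 CPM at 12 weeks (1.90 ± 0.61 SE, adjusted p 0.0184). Aurkb rose from 1.58, 1.10 and 3.23 to 7.39, 5.12 and 8.39 CPM (1.83 ± 0.55 SE, adjusted p 0.0136), and all 3 chromosomal passenger genes were called. Bub1b rose from 2.81, 2.55 and 4.53 to 10.8, 8.89 and 12.1 CPM (1.69 ± 0.40 SE, adjusted p 0.00354). In these genes each mouse of 12 weeks was above each mouse of 6 weeks.

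Kif11 had 17.4, 11.2 and 15.8 CPM at 12 weeks (1.73 ± 0.42 SE, adjusted p 0.00429) and Mki67 52.7, 46.3 and 66.6 CPM (1.58 ± 0.41 SE, adjusted p 0.00656), again above every 6-week mouse. Cdk1 (10.9, 7.39 and 10.8 CPM) and Ccnb1 (11.9, 8.16 and 11.4 CPM) rose less, by 0.94 ± 0.35 SE and 1.16 ± 0.38 SE on the log2 scale. Plk1 had 7.62, 4.88 and 7.58 CPM (1.30 ± 0.40 SE), Ndc80 5.48, 3.51 and 4.59 CPM (1.39 ± 0.35 SE) and Cdc20 13.2, 9.36 and 11.6 CPM (0.94 ± 0.37 SE), and all 3 passed the adjusted test. Foxm1, at 10.5, 8.76 and 10.8 CPM, passed it too (0.76 ± 0.28 SE, adjusted p 0.0340).

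The return was uneven. None of the 3 cytokinesis genes was called at 12 against 6 weeks: Prc1 had 13.5, 9.39 and 12.6 CPM (0.58 ± 0.28 SE, adjusted p 0.0933), Ect2 7.16, 6.05 and 7.83 CPM (0.17 ± 0.17 SE) and Anln 5.96, 4.48 and 6.10 CPM (0.05 ± 0.19 SE). Cenpf, Nuf2, Hmmr, Cdc25c and Fam64a were not called either, with log2 values from 0.12 ± 0.27 SE (Fam64a) to 0.84 ± 0.44 SE (Cdc25c). Pbk alone was lower, at 5.80, 3.71 and 3.93 CPM, every mouse below every mouse of 6 weeks (-0.87 ± 0.24 SE, adjusted p 0.00802), where 11.4% of all genes were lower at the study's threshold and 28.1% after adjustment.

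Across the whole interval, 11 of 40 members were lower in the mice of 12 weeks than in those of 4 weeks, against 11% of all genes, and 10 of 40 after adjustment, against 27.2%. The adjusted share is near the background. In the edgeR fit of all 15 mice 0 members were higher at the study's threshold, against 20.9% of all genes, and 0 at an unadjusted p under 0.05. In a fit of these ages alone 2 were higher at the threshold, 4 at an unadjusted p under 0.05 and 2 after adjustment. The exact test gave 2, 4 and 3. All 3 older mice were below all 3 younger ones in 21 members, against 33.9% of all genes. The 10 that passed the adjusted test were Pbk, Fam64a, Anln, Ect2, Cdc25c, Cenpf, Hmmr, Prc1, Ttk and Nuf2. Pbk fell from 24.9 ± 3.36 to 4.48 ± 1.15 CPM, the greatest change of any member (-2.47 ± 0.24 SE, adjusted p 0.000128). Anln fell from 14.6 ± 1.85 to 5.51 ± 0.898 CPM (-1.40 ± 0.19 SE) and Cenpf from 19.8 ± 2.59 to 9.12 ± 1.92 CPM (-1.12 ± 0.26 SE). Foxm1 was lower at the study's threshold only (-0.65 ± 0.27 SE, adjusted p 0.0590).

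At the other end Melk (4.28 ± 0.421 CPM at 4 weeks and 6.95 ± 2.81 CPM at 12 weeks, log2 fold change 0.70 ± 0.58 SE, p 0.249), Espl1, the separase that cuts cohesin (0.60 ± 0.46 SE), Aurkb (0.52 ± 0.53 SE) and Bub1b (0.50 ± 0.38 SE) had the highest values, none of them called. Mki67 had 54.9 ± 6.38 CPM at 4 weeks and 55.2 ± 10.4 CPM at 12 weeks (0.01 ± 0.40 SE on the log2 scale). The direction at 12 against 4 weeks depended on the scaling: with libraries scaled to the 12 endocrine genes the members' median was 0.53 in place of -0.34, with 1 member lower and 8 higher at the study's threshold, while the median of all genes itself moved to 0.80. Relative to the median of all genes, 28 of 40 members were lower with that scaling and 29 with TMM.

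**Figure D3:**
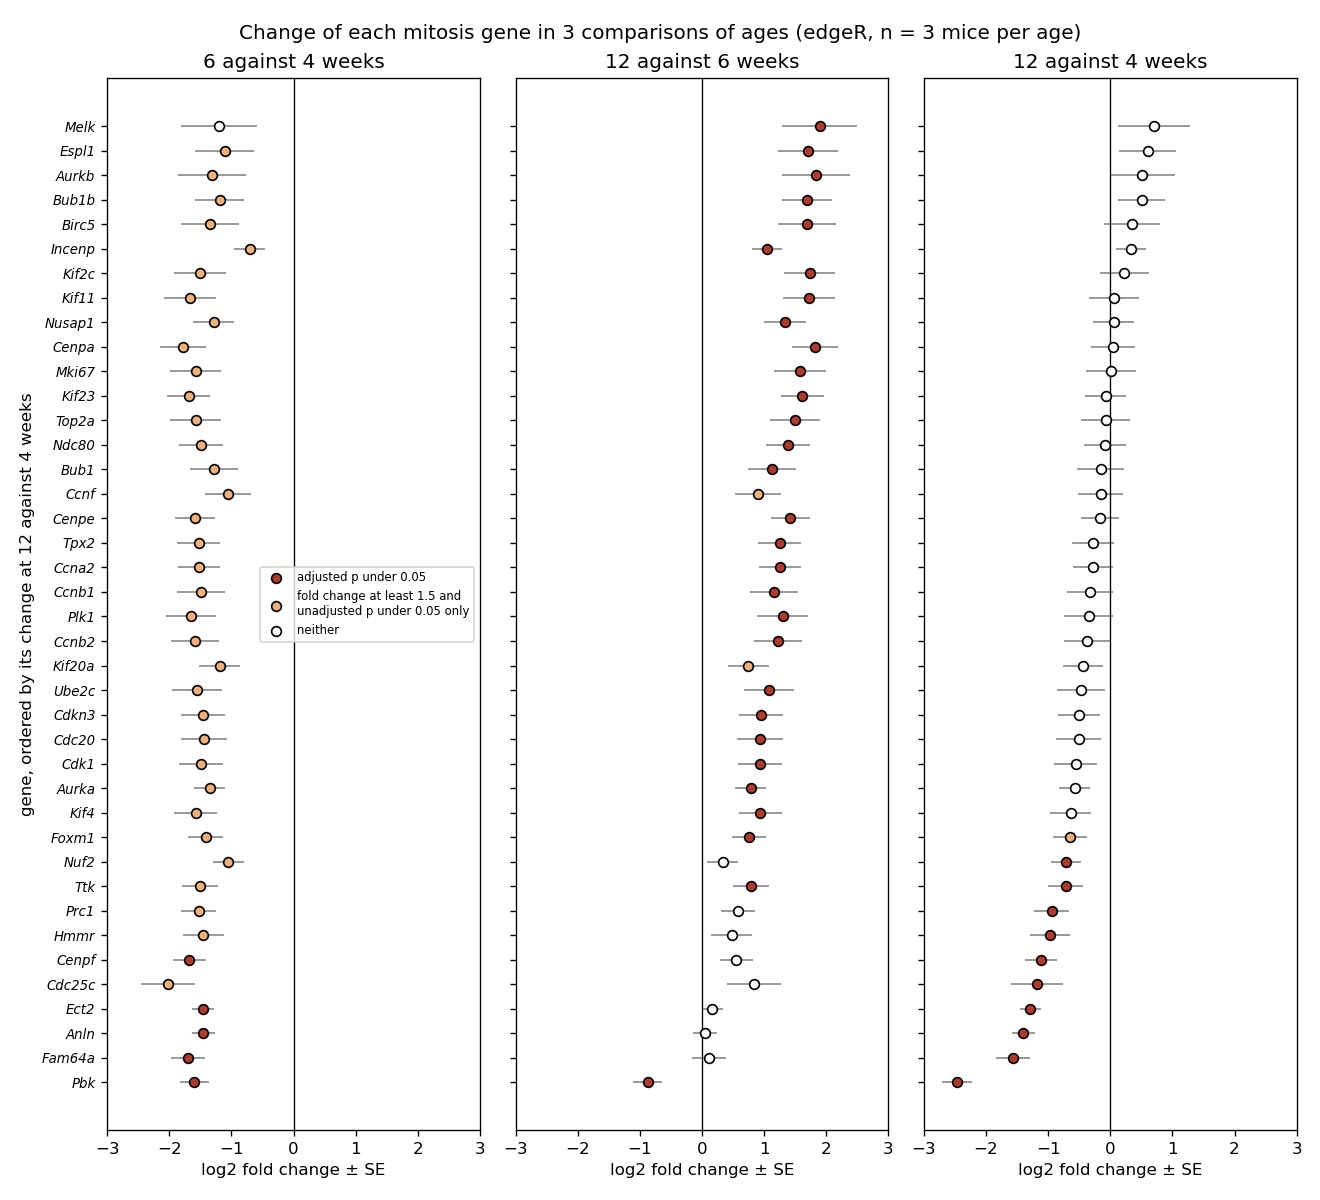
Log2 fold change with its SE for each of the 40 mitosis genes at 6 against 4, 12 against 6 and 12 against 4 weeks, with genes ordered by the last. Filled red points have an adjusted p under 0.05 and orange points pass the study's threshold alone. On the left all 40 points lie below 0, in the middle 39 lie above it with Pbk below, and on the right they run from -2.47 (Pbk) to 0.70 (Melk).

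Mice with similar levels of leukocyte transcripts differed in mitosis transcripts between ages. Mouse 1 of 4 weeks, with a mean leukocyte log2 CPM of 2.02, had 500.4 CPM of mitosis transcripts. Mouse 1 of 8 weeks, at 1.94, had 107 CPM, and mouse 3 of 6 weeks, at 2.55, had 239 CPM. The other 4-week mice had still fewer leukocyte transcripts (0.45 and -0.52) and the highest sums of the age. Among the older mice the highest sum (559.8 CPM, mouse 1 of 10 weeks) came with the highest leukocyte mean (6.05). Mice 1 and 2 of 12 weeks, with the same leukocyte mean (5.68), had 468 and 336 CPM.

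**Figure D4:**
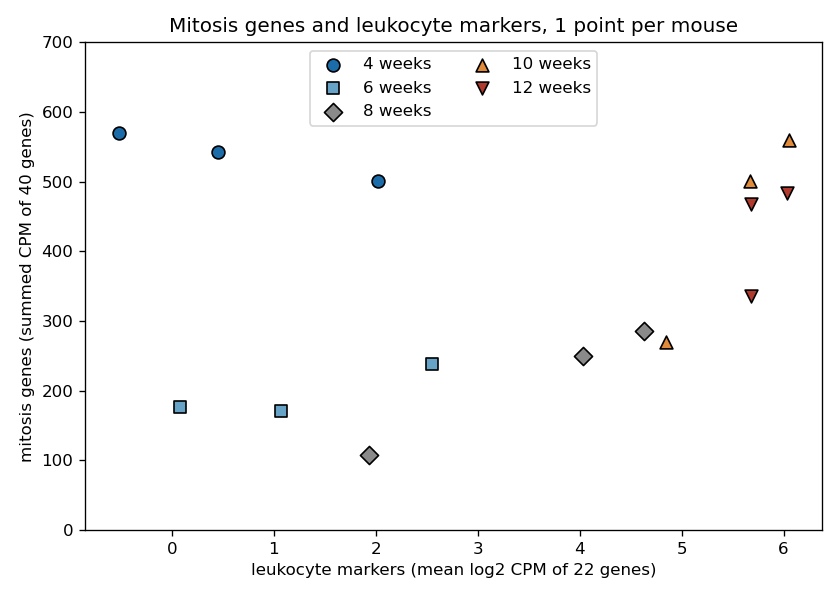
Summed CPM of the 40 mitosis genes against the mean log2 CPM of 22 leukocyte markers, 1 point per mouse. The 3 mice of 4 weeks sit at the upper left, at 500 to 570 CPM, and the 12 older mice run from 107 CPM at low leukocyte levels to 560 CPM at the highest.

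To ask whether the later values followed leukocytes within an age, the slope of each gene on the leukocyte mean was fitted over the 12 mice of 6 to 12 weeks, with age as a factor, on 16461 genes. It was positive in 40 of 40 members, with a median of 0.43 log2 units per unit of the leukocyte mean, against 0.00 over all genes. The test called 25 members after adjustment, against 9.79% of all genes, and 0 negative ones, against 0.286%. Slopes were steepest for Melk (0.90 ± 0.15 SE), Aurkb (0.75 ± 0.14 SE), Espl1 (0.70 ± 0.12 SE) and Birc5, the survivin of the passenger complex (0.69 ± 0.11 SE). They were flattest for Fam64a (0.10 ± 0.13 SE), Ect2 (0.10 ± 0.08 SE) and Pbk (0.10 ± 0.11 SE), none of them called. The result leaned on mouse 1 of 8 weeks: without it 38 slopes were positive with a median of 0.33, and 22 had an unadjusted p under 0.05, but 1 was called after adjustment (Cenpa), against 4.28% of 16784 genes. Without mouse 3 of 8 weeks 13 were called, and without any other single mouse 18 to 29.

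Slopes were also set beside the change from 4 to 12 weeks. Of the 10 members with an adjusted fall, a share near that of all genes, 1 had a called slope (Nuf2), and their slopes ran from 0.10 to 0.33. Of the other 30, 24 had a called slope, and the slopes ran from 0.14 to 0.90. Cdkn3 (0.14) and Aurka (0.20) were among those of the 30 not called. Both measures use the 12-week mice and so are not independent, and the difference between the groups was not tested.

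**Figure D5:**
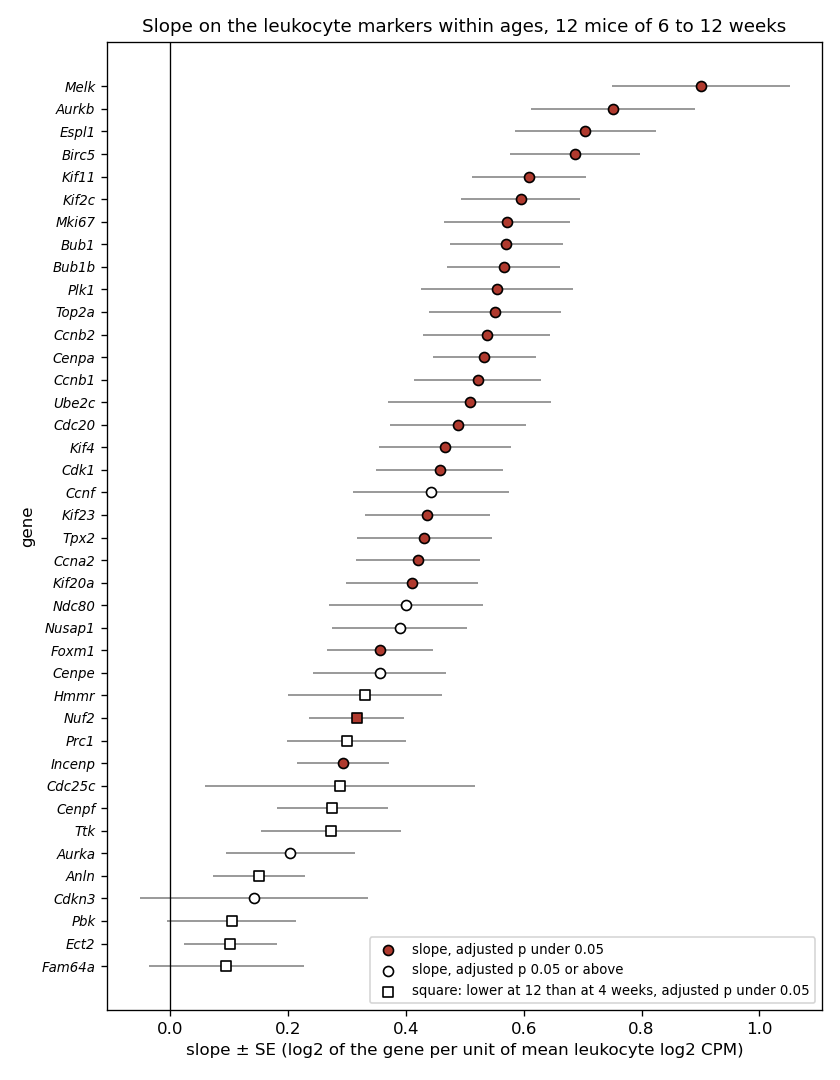
Slope on the leukocyte mean with its SE for each of the 40 members, over 12 mice of 6 to 12 weeks with age as a factor. Red points have an adjusted p under 0.05, and squares are the 10 members lower at 12 than at 4 weeks after adjustment. The squares lie between 0.10 and 0.33, in the lower part of the plot.

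With the leukocyte mean as a covariate over all 15 mice, the fall by 6 weeks was as large as without it: 40 of 40 members were lower at 6 than at 4 weeks, 33 of them after adjustment, with a median of -1.70. The rise was smaller. At 10 against 8 weeks 5 members were called higher, though all 40 values stayed above 0, with a median of 0.55 in place of 1.04. At 12 against 6 weeks 0 were called higher, and the median was -0.09 in place of 1.11. At 12 against 4 weeks 34 members were then lower, 0 after adjustment. The share of all genes called was not counted in this fit, so these counts have no background beside them. The median of all genes in these comparisons was -0.065 to -0.003. Leukocyte level and age move together (at 12 weeks the mean was 5.68 to 6.03 and at 6 weeks 0.08 to 2.55), so in the late comparisons the 2 cannot be told apart.

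Bulk values do not say which cells carried the transcripts. Between 6 and 12 weeks 8 of 8 T cell markers, 6 of 6 B cell markers and 7 of 7 myeloid markers rose at the study's threshold, against 21.3% of all genes. So did 6 of 7 markers of germinal centre B cells, 3 of 5 of plasma cells, 6 of 6 of lymph node stroma and 8 of 8 mesenchymal markers. Of endothelial markers 4 of 8 rose, and of duct markers 4 of 7, with 1 duct marker lower. Myeloid markers summed to 56.0 to 175 CPM at 6 weeks and 1018 to 1109 CPM at 12 weeks, T cell markers to 2.65 to 36.4 and 338 to 462 CPM, and B cell markers to 7.33 to 22.2 and 304 to 459.8 CPM. Lymph node stroma markers summed to 4.58 to 12.3 CPM at 6 weeks and 293 to 517 CPM at 12 weeks, with a median log2 fold change of 5.91. Endocrine genes fell in 11 of 12. The part of each cell type in the members' rise was not tested.

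A list of other mitotic genes held 44 tested genes beyond the 40 members. Of these, 39 were lower at 6 against 4 weeks, 42 had an unadjusted p under 0.05 and 0 passed the adjusted test in edgeR (median log2 fold change -1.25), led by Ncapg, a condensin subunit (-1.88 ± 0.43 SE), and Ska3, of the outer kinetochore (-1.87 ± 0.55 SE). At 12 against 6 weeks 29 were higher and 1 was lower, with Cep55, of the abscission machinery (2.11 ± 0.50 SE), and Kif15 (2.10 ± 0.47 SE) at the top. At 12 against 4 weeks 9 were lower and 1 higher.

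Of 26 DNA replication genes 20 were lower at 6 weeks, 1 of them after adjustment, with a median of -0.82, led by Dscc1 (-2.17 ± 0.35 SE) and Orc1 (-1.56 ± 0.40 SE). Of the same list 19 were higher at 12 against 6 weeks, led by Gins1 (1.98 ± 0.27 SE) and Mcm3 (1.78 ± 0.30 SE), and at 12 against 4 weeks 3 were higher and 0 lower, with a median of 0.00. The difference between replication and mitosis genes was not tested. Constitutive subunits of the anaphase-promoting complex and cohesin, which cells make through the whole cycle, had 0 of 21 genes called at the study's threshold in any of these 3 comparisons. At 6 against 4 weeks 1 of them had an unadjusted p under 0.05 in edgeR, and at 12 against 6 weeks 2 were higher and 7 lower after adjustment, all by less than 1.5-fold. At 12 against 4 weeks 1 was higher and 10 lower after adjustment. The medians of the 3 comparisons were -0.04, -0.07 and -0.11, and Anapc11 (-0.17 ± 0.06 SE) and Smc1a (-0.16 ± 0.08 SE) changed most by 6 weeks.

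Levels can be compared between members in the deposited TPM, which divides by transcript length. At 4 weeks the mean TPM ran from 1.62 ± 0.182 for Ttk, a checkpoint kinase, to 26.6 ± 2.82 for Pbk, with a median of 5.19 over the members. At 6 weeks the same genes marked the ends, 0.584 ± 0.187 and 8.89 ± 1.39 TPM, with a median of 1.84. By 12 weeks Top2a led with 15.5 ± 3.79 TPM and Pbk stood at 6.26 ± 1.39 TPM, so Pbk had lost its place as the most abundant of the 40, and the median was 6.00. These TPM values are scaled within each mouse and take no TMM factor. Their median was higher at 12 than at 4 weeks, whereas in CPM the median member stood at 79.1% of its 4-week mean at 12 weeks. The 2 measures thus differ in direction over this interval, and the cause was not tested.

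Gene models of 18 members overlap another gene, and in 7 the partner had counts above 1% of the member's own. Use of strand in the counting is not given in the sources used here, so reads from overlapping exons on opposite strands may be assigned to either gene. The partners Exosc9 (of Ccna2), Cdc23 (of Kif20a), Pdzd11 (of Kif4), Elovl1 (of Cdc20) and Rccd1 (of Prc1) changed between -0.08 and 0.00 on the log2 scale from 4 to 6 weeks, while the members fell by more than 1. Oip5, which overlaps Nusap1 and is itself a centromere gene, had a log2 fold change of -0.95 (adjusted p 0.378). The remaining partner is Gm3550, on the strand opposite Cdc25c, with 28 counts over all mice against 498 for Cdc25c. In the later comparisons Elovl1, with 11285 counts against 4457 for Cdc20, moved in the same direction as Cdc20, by 0.34 at 10 against 8 weeks (adjusted p 0.0328) and by 0.42 at 12 against 6 weeks (adjusted p 0.00232). At 12 against 6 weeks Cdc23 (-0.24) and Pdzd11 (-0.47) were lower after adjustment.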

How the data were processed

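Islet RNA from 15 NOD females was sequenced as paired-end reads of polyadenylated RNA. The authors aligned the reads in CLC Genomics Workbench at default settings and deposited total counts per gene and TPM (abundances scaled by gene length) in 1 table for all mice. The build named in the submitters' notes is mm10. Samples were grouped by the age in the labels. The labels give no batch or date.

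Counts as deposited were analysed in edgeR 4.0.16 (R 4.3.3) by the quasi-likelihood test after filterByExpr (16554 of 48709 genes kept) and TMM scaling, with 1 mean per age over all 15 mice. P-values were adjusted by Benjamini-Hochberg over all genes tested. The leukocyte slope used the mean log2 CPM of 22 of 23 listed markers, since Itgam had no matching entry, at a prior count of 2. Deposited TPM served only to compare levels between genes. Each of 30 further per-sample columns (RPKM and CPM) was left unused. Other scalings, no filter, the 2 ages alone, edgeR's exact test, DESeq2 1.42.0, a replicate block, a leukocyte covariate and leaving out each mouse were tried. The procedure was tested on simulated data. Counting intervals and floors cover counting error only.

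The members and gene lists were chosen with earlier results of these data known. Values in every mouse are given for 13 members picked to represent the roles and for the members with the greatest and least change in each comparison. Of the lists of other mitotic, DNA replication and constitutive genes, the 2 with the greatest change are named. Other members named were chosen after their values were seen.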

Additional observations from a re-analysis of the deposited data

How the results depend on the processing

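Counts below are of the 40 mitosis genes, and the share of all genes is not given beside them. Leaving out 1 mouse at a time gave 36 to 40 calls at the study's threshold for 6 against 4 weeks (0 to 2 after adjustment, where all mice gave 5), 2 to 13 for 8 against 6 (0 to 1 adjusted), 24 to 40 for 10 against 8 (0 to 36 adjusted), 0 to 0 for 12 against 10 (0 to 0 adjusted), 24 to 33 for 12 against 6 (16 to 30 adjusted), 8 to 11 for 12 against 4 (6 to 9 adjusted) and 1 to 29 slopes. Adjusted calls at 6 against 4 weeks numbered 3 with DESeq2 size factors, 3 with library totals, 0 with endocrine scaling, 31 with the 2 ages alone, 38 in the exact test, 32 in DESeq2 and 33 with the leukocyte covariate. At 8 against 6 weeks the threshold count of 2 became 1 with library totals, 1 with endocrine scaling and 5 with the leukocyte covariate, and the adjusted count of 0 became 1 in the exact test and 1 in DESeq2. At 10 against 8 weeks the count of 36 became 16 with the 2 ages alone and 5 with the covariate. The adjusted 17 became 39 with endocrine scaling, 7 with no filter, 33 in DESeq2 and 0 with the 2 ages alone, in the exact test or with the covariate. At 12 against 6 weeks the covariate left 0 of 31 and 0 adjusted. At 12 against 4 weeks the 11 became 6 with library totals, 1 with endocrine scaling and 34 with the covariate, and the adjusted 10 became 5, 1 and 0. The slope, called in 25 members over 12 mice, was called in 7 over all 15. The cause of these shifts was not tested.

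With the leukocyte covariate the log2 fold change at 12 against 6 weeks was below 0 in 25 of 40 members, against 1 without it. Of the members picked to represent the roles, and Melk, those that turned from above to below 0 were at -0.25 in Foxm1, -0.20 in Cdk1, -0.28 in Ccnb1, -0.31 in Plk1, -0.35 in Aurkb, -0.056 in Cenpf, -0.069 in Kif11, -0.070 in Top2a, -0.54 in Cdc20, -0.25 in Prc1 and -0.81 in Melk. Library totals moved the median of all genes from -0.04 to 0.20 at 12 against 6 weeks. Each mouse gave islets at 1 age only, and the correlations of same-numbered mice ran from -0.504 to 0.509, so the numbers were not taken as pairs. With the replicate block, 1 adjusted call was left at 6 against 4 weeks and 0 at 10 against 8, and 22 were left at 12 against 6, 8 at 12 against 4 and 29 slopes.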
